A study of Mus musculus with 10 samples.

Results

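The epidermal growth factor (EGF) receptor family and its ligands were measured as 10 genes in squamous cell carcinomas (SCC) of the mouse lung and in lungs without tumor. The members were the 4 receptor genes Egfr, Erbb2, Erbb3 and Erbb4 and the 6 ligand genes Areg, Ereg, Btc, Hbegf, Tgfa and Egf, and they were selected by gene symbol. They are 10 of 19096 genes that could be paired with a probe, and 21 probes on the array were paired with them. For each gene the probe brightest on average over the 10 arrays stands for it, and the other probes are given beside it. The WT group was 5 whole lungs of B6.129 mice (the strain as the labels write it) aged 13 months that carried the floxed Lkb1 allele without Cre (Lkb1f/f). The SCC group was 5 whole lung tumors of 13-month-old B6.129 mice of genotype CCSPiCreLkb1f/f, in which the CCSP promoter, active in airway epithelium, drives Cre and deletes Lkb1. The floxed allele was therefore shared by both groups, and no mouse had been treated. Total RNA was labelled with Cy3 and hybridised to Agilent single-colour arrays, 1 array a sample. The question was which transcripts differ between a squamous tumor arising without Lkb1, a tumor suppressor kinase, and the lung of mice that kept it.

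The ErbB receptors are tyrosine kinases that pair on binding a ligand and signal through RAS and ERK and through PI3K. Their ligands are made as membrane-anchored precursors and are released by proteases such as ADAM17. In airway epithelium this system is known for its part in repair after injury, and Egfr is a well known driver gene of lung cancer.

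Squamous markers separated the groups on every array. The mean log2 level of Krt5, Krt14, Trp63, Dsg3 and Pkp1 ranged from 4.27 to 4.72 in WT and from 11.95 to 15.07 in SCC, and Dsg3 and Pkp1 were not above background on any WT array. A pair of SCC arrays stood apart. SCC replicate 2 had the lowest squamous level, 11.95 against 14.73 to 15.07 on the other SCC arrays, correlated with the WT arrays across probes at 0.940 to 0.946, and had Xist at 2.58, low as on WT replicates 2 and 3 (4.33 and 2.27), where the other 7 arrays gave 13.75 to 14.19. SCC replicate 5 had 90.2% of its probes above background, against 71.0% to 74.3% on the other 9 arrays, and combined Xist at 13.75 with the Y-linked Ddx3y at 8.34. Values without these arrays are given for the members and pathway genes whose call they change, and for others where they differ clearly. In whole tissue, fewer cells of a type and less RNA per cell cannot be told apart.

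Of the 10 members, 8 were bright enough in both groups to be tested, and of these 3 were called higher in SCC and 1 lower. Egfr, Areg and Btc rose, Egf fell, Erbb2 and Erbb3 passed the p threshold without reaching 2-fold, Hbegf and Tgfa did not pass, and Erbb4 was too dim to test. Ereg also met the call as higher, but it was bright enough in the SCC group alone and above background on 1 WT array, so it could enter the test only by being high in SCC and its call is a description. A call here required an adjusted p below 0.05 in limma over all tested probes and at least a 2-fold difference. With 1 probe a gene, 24.9% of 15586 tested genes met it, 11.6% higher and 13.4% lower in SCC. Among the 14598 genes bright enough in both groups, 10% were called higher and 12.5% lower. The SCC and WT arrays did not overlap for Areg and Erbb2, 2 of 9 members, beside 18.8% of all tested genes that lay wholly higher in SCC and 22.3% wholly lower. At the adjusted p alone, 6 members, Ereg among them, were higher and 1 was lower, beside 25.5% and 28.4% of all tested genes. The median difference was 0.81 log2 units over the 8 members bright in both groups and -0.045 over the 14598 genes that were. All levels below are quantile-normalized log2 intensities, and all differences are SCC minus WT in log2 units with their standard error (SE).

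**Figure D1:**
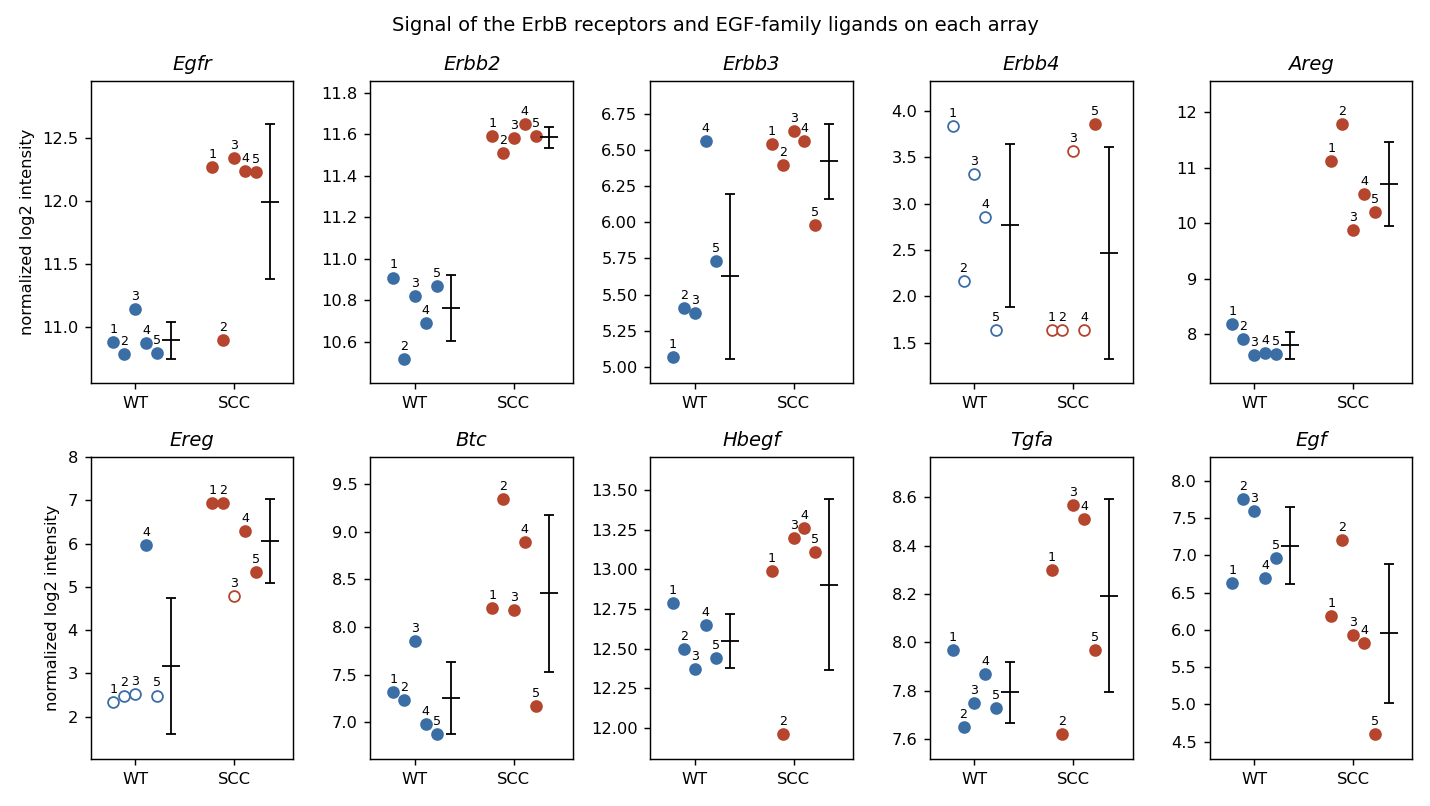
Normalized log2 intensity (vertical axis, separate scale in each panel) of the 10 members on the 5 WT (blue) and 5 SCC (red) arrays, with replicate numbers; open circles mark arrays where the probe was not above background, and the bars give the mean ± SD of each group. Areg and Erbb2 show no overlap between groups, and SCC replicate 2 lies within the WT range for Egfr and Egf and below it for Hbegf and Tgfa but is the highest array for Areg and Btc.

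Egfr, the receptor of most of these ligands, was measured by 4 probes and was called higher with each of them, beside 22.9% of all 30374 tested probes that were called in either direction. Its representative probe, spotted 10 times on each array, gave 10.88, 10.78, 11.14, 10.87 and 10.79 on WT replicates 1 to 5. The same probe gave 12.27, 10.89, 12.34, 12.24 and 12.23 on SCC replicates 1 to 5. Thus 4 SCC arrays lay in a narrow band above all WT arrays and SCC replicate 2 lay within the WT range. The difference was 1.10 (SE 0.27, adjusted p = 0.00686, limma), a 2.15-fold rise, with an exact permutation p of 0.0159. Without SCC replicate 2 it was 1.38 (adjusted p = 2.6e-06). The other probes gave 1.59, 1.53 and 2.19 (adjusted p = 0.00211, 0.00127 and 0.00253), and on all 3 SCC replicate 2 was the lowest SCC array yet above every WT array. Repeated spots of the representative probe within an array had a median SD of 0.081, which is technical spread only.

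The bases before the Egfr start are shown because the receptor was called with every probe. They are from RefSeq, build GRCm38.p6, chr11:16751953-16752202, plus strand, and end 1 base before the annotated start.
Egfr: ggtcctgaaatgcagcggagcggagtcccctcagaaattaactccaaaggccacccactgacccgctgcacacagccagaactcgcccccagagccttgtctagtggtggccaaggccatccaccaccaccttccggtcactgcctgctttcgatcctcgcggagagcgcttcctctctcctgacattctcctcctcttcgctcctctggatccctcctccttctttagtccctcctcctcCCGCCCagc
The capitals mark a GC box, searched as CCGCCC on either strand, which lay 9 to 4 bases before the start and was present in 32.7% of the 32851 windows of 250 bases before an annotated start. Neither TATAAA nor TGACGTCA was found in this Egfr window.

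Erbb2, the receptor for which no ligand is known and which serves as a partner of the others, had the smallest standard error among the tested members. The WT arrays gave 10.91, 10.52, 10.82, 10.69 and 10.87. The SCC arrays gave 11.59, 11.51, 11.58, 11.65 and 11.59. Every SCC array was above every WT array, SCC replicate 2 included. The difference was 0.82 (SE 0.093, adjusted p = 8.99e-05, limma) or 1.77-fold, below the 2-fold requirement, and its exact permutation p was 0.00794, the smallest that 5 against 5 arrays can give. The other Erbb2 probe, spotted once on each array, gave 1.55 (adjusted p = 1.6e-05) and was called.

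Erbb3, a receptor with little kinase activity of its own, was dimmer. Its representative probe read 5.07, 5.41, 5.37, 6.56 and 5.73 on the WT arrays. On the SCC arrays it read 6.54, 6.40, 6.63, 6.56 and 5.98. WT replicate 4 reached the level of the SCC arrays, so only 1 SCC array exceeded all WT arrays. The difference was 0.79 (SE 0.26, adjusted p = 0.0308, limma; exact permutation p = 0.0397), and it missed the p threshold in 7 of 10 fits that left out an array. Without WT replicate 4 it was called at 1.02 (adjusted p = 0.00204). It was 0.27 (adjusted p = 0.0679) with normexp background correction and, at 1.13 (adjusted p = 0.0132), was called with scaling to the 75th percentile. A second Erbb3 probe rose without overlap by 1.21 (adjusted p = 1.33e-04). A further probe rose by 2.18 (adjusted p = 0.00181) but was above background on only 1 WT array. The last was above background on no WT array and did not pass (adjusted p = 0.091). Both passed the brightness filter through the SCC group alone, so their values are a description.

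Erbb4, a receptor of both EGF-like ligands and neuregulins, was represented by 3 probes. None was above background on any WT array, and all 3 were above background only on SCC replicate 5, the array with the high share of bright probes. It was not tested and no fold is given.

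**Figure D2:**
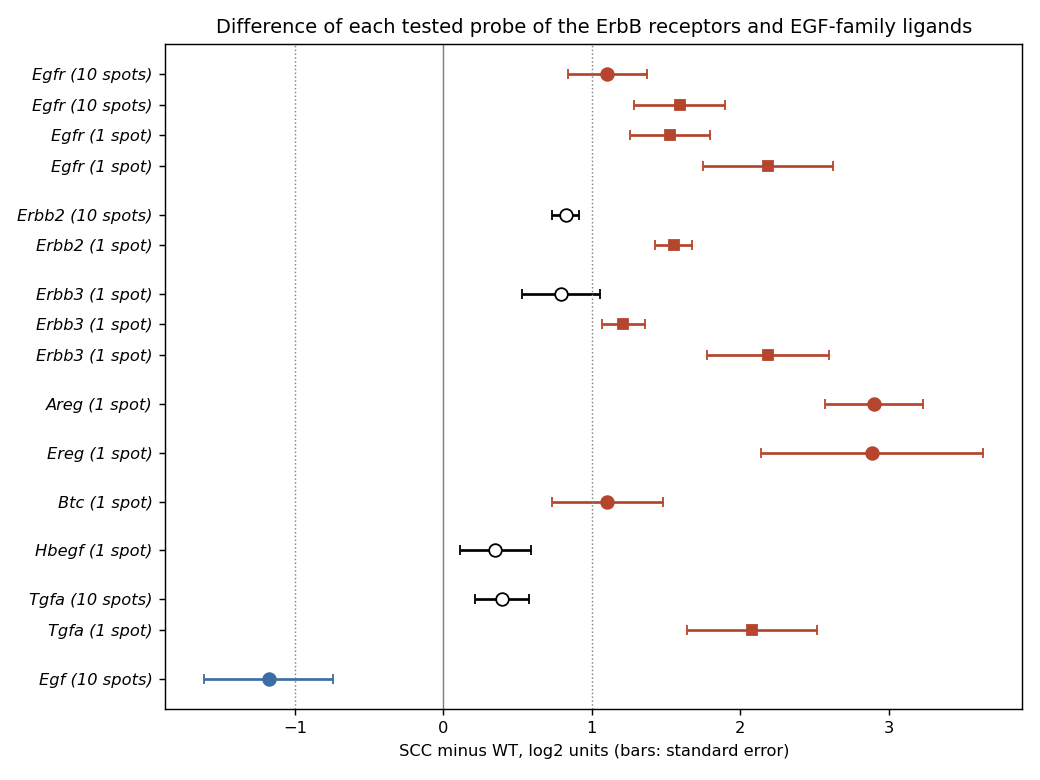
Difference between SCC and WT (horizontal axis, log2 units, bars are the SE from limma) for 16 tested member probes, circles for the representative probe and squares for the others; filled symbols were called, and 1 Erbb3 probe above background on no WT array is left out. The Egfr and Erbb3 probes all lie to the right of 0, and the dimmer Tgfa probe lies at 2.08 while the brighter one lies at 0.40. The dimmer Tgfa probe passed the brightness filter through the SCC group alone.

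Among the ligands bright in both groups, Areg and Btc were called higher and Egf lower in SCC. Areg encodes amphiregulin, a ligand of Egfr made by epithelial and immune cells in wounded tissue. It read 8.18, 7.91, 7.62, 7.65 and 7.64 on the WT arrays. It read 11.11, 11.79, 9.88, 10.52 and 10.20 on the SCC arrays. The groups did not overlap, and the highest value was that of SCC replicate 2, the array lowest in squamous markers. The difference was 2.90 (SE 0.33, adjusted p = 9.47e-05, limma; exact permutation p = 0.00794), a 7.47-fold rise, and 97.1% of tested genes had a smaller value. Areg was called in all 10 fits that left out an array and was the only member still called with slide as a fixed block.

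The 250 bases before the Areg start are shown because it was called under every alternative tried, together with those of Btc, a neighbouring ligand gene that was also called higher. Both are from RefSeq, build GRCm38.p6. The Areg window is chr5:91139349-91139598 on the plus strand, and the Btc window is chr5:91402995-91403244 on the minus strand, each written in the direction of its gene.
Areg: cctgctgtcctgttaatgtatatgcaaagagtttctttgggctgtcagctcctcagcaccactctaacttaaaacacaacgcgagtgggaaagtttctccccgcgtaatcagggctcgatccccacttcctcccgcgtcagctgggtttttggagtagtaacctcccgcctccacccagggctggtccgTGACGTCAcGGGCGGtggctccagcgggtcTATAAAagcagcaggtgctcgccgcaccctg
Btc: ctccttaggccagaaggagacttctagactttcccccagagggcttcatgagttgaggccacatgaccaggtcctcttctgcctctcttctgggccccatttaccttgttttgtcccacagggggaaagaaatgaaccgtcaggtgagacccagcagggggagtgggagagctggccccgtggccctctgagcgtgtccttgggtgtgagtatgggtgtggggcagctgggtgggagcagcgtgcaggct
Capitals in Areg mark TGACGTCA, the cAMP response element, 61 to 54 bases before the start, a GC box (CCGCCC read on the other strand) at 52 to 47 bases and a TATA box (TATAAA) at 31 to 26 bases. None of the matches overlapped another. TGACGTCA was present in 1.55% and TATAAA in 12.4% of all 32851 windows, and Areg was the only member with either. The Btc window held none of the motifs searched. TGANTCA, the AP-1 site, was present in 6.75% of all windows and in none of those of the 7 members with an entry, Erbb4, Egf, Areg, Btc, Tgfa, Egfr and Erbb2. Such matches describe letters in a window and show no binding. TGACGTCA, TATAAA and CCGCCC were chosen after the Areg sequence had been seen.

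Ereg encodes epiregulin, another ligand of Egfr and Erbb4. It read 2.35, 2.49, 2.53, 5.98 and 2.49 on the WT arrays and was above background there on replicate 4 only. On the SCC arrays it read 6.94, 6.93, 4.79, 6.29 and 5.34, above background on all but replicate 3. The SCC arrays were above 4 of the WT arrays, and WT replicate 4 lay among them. The difference was 2.89 (SE 0.75, adjusted p = 0.0101, limma; exact permutation p = 0.0238). Since Ereg passed the brightness filter through the SCC group alone and was mostly at background in WT, these values are a description, and the size of the difference is uncertain. With normexp background correction the Ereg difference was 0.61 (adjusted p = 0.0212), under 2-fold.

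Btc encodes betacellulin, which binds Egfr and Erbb4. The WT arrays gave 7.32, 7.23, 7.85, 6.98 and 6.88. The SCC arrays gave 8.20, 9.34, 8.18, 8.89 and 7.17. SCC replicate 2 was again the highest, and SCC replicate 5 lay within the WT range. The difference was 1.11 (SE 0.37, adjusted p = 0.0327, limma; exact permutation p = 0.0317) or 2.15-fold. The call was lost in 8 of 10 fits that left out an array, with 0.86 (adjusted p = 0.0523) without SCC replicate 2, and it was kept at 1.40 (adjusted p = 0.00298) without SCC replicate 5. With normexp background correction it was 0.78 (adjusted p = 0.0126), under 2-fold. A second Btc probe was above background only on SCC replicate 5 and was not tested.

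Hbegf encodes heparin-binding EGF-like growth factor. It read 12.79, 12.50, 12.37, 12.65 and 12.44 on the WT arrays. It read 12.99, 11.96, 13.20, 13.26 and 13.11 on the SCC arrays. All SCC arrays but replicate 2 were above every WT array, and replicate 2 was below every WT array. The difference of 0.35 (SE 0.24) did not pass (adjusted p = 0.243, limma; exact permutation p = 0.214), and without SCC replicate 2 it was 0.59 (adjusted p = 0.00131).

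Tgfa encodes transforming growth factor alpha, a ligand of Egfr. Its representative probe, spotted 10 times, read 7.97, 7.65, 7.75, 7.87 and 7.73 on the WT arrays. It read 8.30, 7.62, 8.57, 8.51 and 7.97 on the SCC arrays. Replicate 2 was the lowest of all 10 arrays here too. The difference was 0.40 (SE 0.18, adjusted p = 0.094, limma; exact permutation p = 0.103), and 0.54 (adjusted p = 0.00723) without SCC replicate 2. With scaling to the 75th percentile it passed at 0.51 (adjusted p = 0.0357). The second, dimmer Tgfa probe gave 2.08 (adjusted p = 0.00341), with WT arrays from 3.88 to 4.87, SCC replicate 2 at 4.81 and the other SCC arrays from 6.84 to 7.31. It was above background on 2 of the WT arrays and passed the brightness filter through the SCC group alone. Its values are therefore a description, and no call is set against that of the representative probe.

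Egf itself was the member called lower. It read 6.63, 7.75, 7.60, 6.70 and 6.96 on the WT arrays. It read 6.19, 7.21, 5.93, 5.83 and 4.60 on the SCC arrays. SCC replicate 2 lay within the WT range, and the other SCC arrays were below it. The difference was -1.18 (SE 0.44, adjusted p = 0.0472, limma; exact permutation p = 0.0397), so Egf was 2.26-fold lower. The call was lost in 9 of 10 fits that left out an array and held only without SCC replicate 2, at -1.49 (adjusted p = 0.00761). SCC replicate 5 was the lowest array, and without it the difference was -0.84 (adjusted p = 0.0643). Scaling to the 75th percentile gave -0.78 (adjusted p = 0.0903), and normexp background correction gave -0.53 (adjusted p = 0.0382), under 2-fold. Several marker lists were lower in SCC as well. Called lower were 4 of 5 cardiac markers (Myh6, Tnnt2, Actc1 and Myl7), 5 of 5 endothelial, 3 of 4 alveolar type 1 and 3 of 5 T cell markers. The mean level of the 5 cardiac markers was 10.36 to 14.08 on the WT arrays and 8.67 to 10.37 on the SCC arrays. The WT array with the lowest cardiac level, replicate 1, also had the lowest Egf, and the one with the highest, replicate 2, had the highest Egf. The part of these cell types in the Egf result was not tested.

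Of the 6 ligand genes, 3 lie next to each other. In the RefSeq gene order of mouse chromosome 5, the protein-coding genes Epgn, Ereg, Areg and Btc follow one another, and Epgn encodes epigen, another ligand of Egfr. Epgn, Areg and Btc were called higher in SCC, and so was Ereg, which was above background on 1 WT array and had passed the brightness filter through SCC alone. Epgn read 8.53, 8.66, 8.74, 9.13 and 9.04 on the WT arrays and 10.50, 10.13, 9.49, 10.63 and 9.99 on the SCC arrays. The groups did not overlap, and the difference was 1.33 (SE 0.22, adjusted p = 8.62e-04, limma). The flanking protein-coding genes, looked up after these values were seen, were Mthfd2l, a mitochondrial folate enzyme, at 0.36 (adjusted p = 0.223), and Parm1, which encodes a mucin-like membrane protein, at 2.67 (adjusted p = 9.49e-06). The difference thus did not pass on the Epgn side of the row and was called on the Btc side.

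The members differed in how they stood on SCC replicate 2, and the values are a description without a test. Against the mean of the WT arrays, Egfr was at 0.00 on this array, while the other 4 tumors lay between 1.34 and 1.45. Hbegf was at -0.60 against 0.44 to 0.71, and Tgfa was at -0.18 against 0.17 to 0.77. Areg was at 3.99 on it against 2.08 to 3.31 on the others. Btc was at 2.09 against -0.08 to 1.64. Egf was at 0.08 against -2.53 to -0.93. Ereg, mostly at background in WT, was at 3.76 against 1.62 to 3.77. Erbb2 was at 0.75 against 0.82 to 0.89, and Erbb3 at 0.77 against 0.35 to 1.00. The array was thus within the WT range for Egfr and Egf and below every WT array for Hbegf and Tgfa. It was highest for Areg and Btc, and near the other tumors for Erbb2 and Erbb3. This holds for the representative probes. On the other 3 Egfr probes it lay above every WT array, and on the second Tgfa probe it lay within the WT range. Marker levels differed on it as well. The mean log2 level of 5 neutrophil markers, 4 of which were called higher in SCC, was 10.20 on SCC replicate 2, 12.51 to 12.70 on the other SCC arrays and 10.11 to 10.98 on the WT arrays. That of 5 general epithelial markers was 15.61 on it, 14.65 to 14.99 on the other SCC arrays and 13.70 to 14.09 on the WT arrays. The part of these cell types in the values of the members was not tested.

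**Figure D3:**
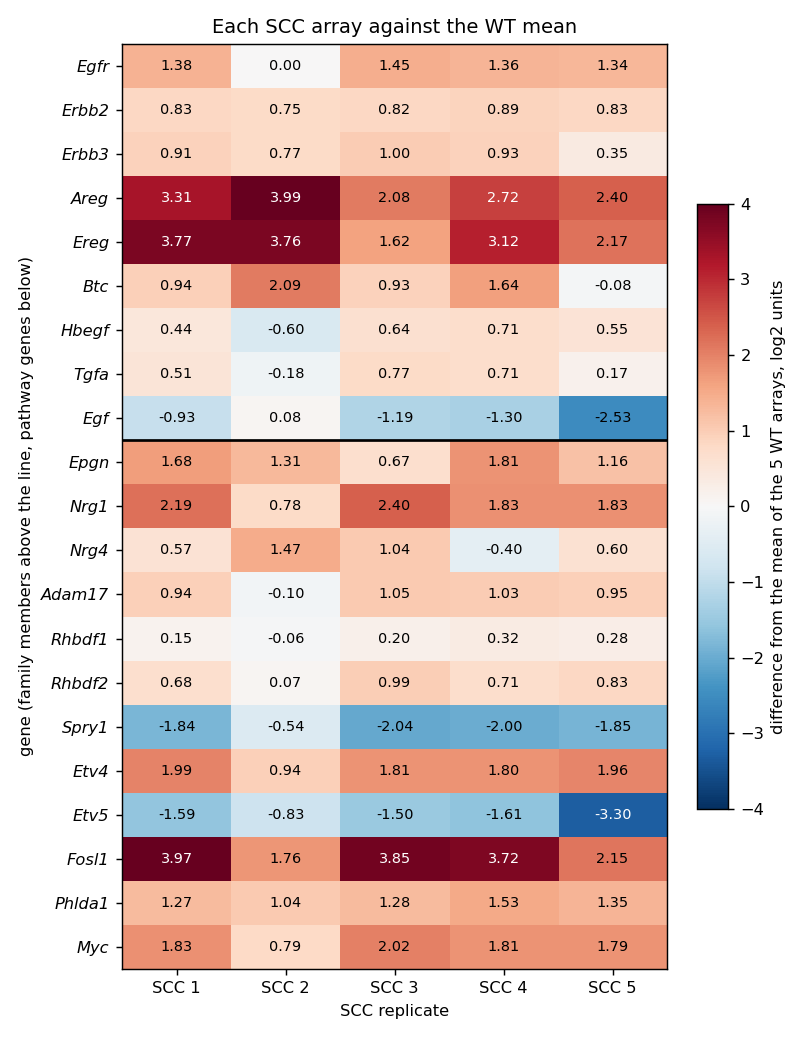
Difference of each SCC array from the mean of the 5 WT arrays (colour and printed value, log2 units) for the 9 tested members above the line and 12 pathway genes below it, 1 column for each SCC replicate. In the column of SCC replicate 2, Egfr is at 0.00 and Adam17 at -0.10 while Areg reaches 3.99.

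The slides on which the arrays lay could separate the groups only in part. Slide 1 held only WT arrays (replicates 1 to 4) and slide 3 only SCC arrays (replicates 4 and 5), while slide 2 held WT replicate 5 together with the SCC arrays 1 to 3. Within slide 2, with 1 WT array and no test, the differences were 1.05 for Egfr, 0.69 for Erbb2 and 0.79 for Erbb3. For the ligands they were 3.29 for Areg, 3.73 for Ereg, 1.69 for Btc, 0.28 for Hbegf, 0.43 for Tgfa and -0.52 for Egf. All had the sign of the whole comparison. A fit with slide as a fixed block rests on the same single WT array, which is assumed to vary like the others. In it Areg stayed called at 3.29 (adjusted p = 0.0169, limma), Erbb2 passed at 0.69 (adjusted p = 0.0455), and Egfr did not pass at 1.05 (adjusted p = 0.209). Ereg at 3.73 (adjusted p = 0.137), Btc at 1.69 (adjusted p = 0.151) and Egf at -0.52 (adjusted p = 0.664) lost their calls in it too, and Erbb3 no longer passed at 0.79 (adjusted p = 0.351). The pathway genes described below that lost their call in this fit were Epgn at 1.00 (adjusted p = 0.154), Nrg1 at 1.81 (adjusted p = 0.066), Spry1 at -1.21 (adjusted p = 0.152), Etv4 at 1.40 (adjusted p = 0.0506) and Etv5 at -1.13 (adjusted p = 0.225).

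The remaining pathway was followed with a list of 37 genes in 5 roles, of which 33 had a probe and 31 could be tested. Limma called 6 of them higher (Epgn, Nrg1, Etv4, Fosl1, Phlda1 and Myc) and 2 lower (Spry1 and Etv5), beside 11.6% and 13.4% of all tested genes. Fosl1 passed the brightness filter through the SCC group alone, and of the 30 genes that passed it in both groups 5 were called higher and 2 lower, beside 10% and 12.5%. At the adjusted p alone, 12 were higher and 11 lower, beside 25.5% and 28.4% of all tested genes. The groups did not overlap for 8 that were higher and 9 that were lower, beside 18.8% and 22.3%. The median difference of the 31 genes was -0.068, with changes in both directions, and that of all tested genes was -0.038.

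Among the other ligands, 2 of 3 tested genes, all bright in both groups, were called higher, beside 10% of all genes bright in both groups. Besides Epgn, this was Nrg1, which encodes neuregulin 1, a ligand of Erbb3 and Erbb4. Its representative probe read 7.67, 7.40, 7.30, 7.42 and 7.42 on the WT arrays and 9.63, 8.22, 9.84, 9.27 and 9.27 on the SCC arrays. The groups did not overlap, SCC replicate 2 was the lowest tumor, and the difference was 1.81 (SE 0.27, adjusted p = 4.35e-04, limma), or 2.06 (adjusted p = 3.49e-06) without that array. A pair of other Nrg1 probes bright in both groups gave 3.22 and 2.13, both called. A further Nrg1 probe gave 3.97 but was above background on only 2 WT arrays and passed the brightness filter through the SCC group alone. Nrg4, another neuregulin, did not pass at 0.65 (SE 0.31, adjusted p = 0.104), Nrg3 was too dim to test, and Nrg2 was not analysed here.

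None of the 3 tested genes for ligand release reached 2-fold. Adam17, the main protease releasing these ligands, differed by 0.78 (adjusted p = 0.0141, limma), with 4 of 5 SCC arrays above all WT arrays and SCC replicate 2 at -0.10 from the WT mean. Rhbdf2, an iRhom that carries Adam17 to the cell surface, differed by 0.65 (adjusted p = 0.00847), and the related Rhbdf1 by 0.18 (adjusted p = 0.145). Without SCC replicates 2 and 5 together Adam17 was called at 1.01 (adjusted p = 2.68e-05). Adam10 was not analysed here.

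Of 9 tested negative regulators, all bright in both groups, only Spry1, a Sprouty inhibitor of receptor signalling, was called, beside 12.5% of all genes bright in both groups that were called lower. It fell by 1.65 log2 units (SE 0.27, adjusted p = 8.39e-04, limma). It read 13.36 to 13.81 on the WT arrays, 13.09 on SCC replicate 2 and 11.59 to 11.79 on the other SCC arrays. Without SCC replicate 2 the Spry1 difference was -1.93 (adjusted p = 1.13e-06). Spry4, a related inhibitor, did not pass at -0.90 (adjusted p = 0.0608) and was called at -1.02 (adjusted p = 0.0455) without SCC replicate 2 and at -1.07 (adjusted p = 0.039) without SCC replicate 1. At the p threshold alone, 5 of these 9 genes were lower and 1 higher, beside 28.4% and 25.5% of all tested genes. Other probes disagreed for 3 of them. A second, dimmer Cbl probe gave 1.41 (adjusted p = 0.0326), where the representative gave -0.26 (adjusted p = 0.267). The dimmer probe was above background on 3 WT arrays and passed the brightness filter through the SCC group alone, so its value is a description. A second Lrig2 probe was higher by 0.26 (adjusted p = 0.0342), where the representative fell by 0.71 (adjusted p = 7.01e-04). A second Spry2 probe gave 0.29 (adjusted p = 0.294), where the representative fell by 0.90 (adjusted p = 1.26e-04). Of 7 tested adaptors and effectors none was called, with 3 lower and 1 higher at the p threshold alone, beside the same shares of all tested genes. The higher one was Sos1, an activator of RAS, at 0.34 (adjusted p = 0.037), and its other probe gave -0.67 (adjusted p = 0.256). Of the lower ones, Ptpn11, a phosphatase, passed with 2 of 3 probes, and the other gave -0.29 (adjusted p = 0.119).

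The ERK-responsive transcripts split in direction, with 3 of the 8 that were bright in both groups called higher and 1 lower, beside 10% and 12.5% of all genes bright in both groups. Fosl1, an AP-1 subunit, also met the call at 3.09 (SE 0.53, adjusted p = 0.00104, limma). It read 2.53 to 4.57 on the WT arrays, where it was above background only on replicate 3, and 5.54 to 7.76 on the SCC arrays. It passed the brightness filter through the SCC group alone, so these values are a description, and its difference was 1.00 (adjusted p = 0.00323) with normexp background correction. Etv4, an ETS factor, rose by 1.70 (SE 0.20, adjusted p = 1.2e-04), but by 0.71 (adjusted p = 1.02e-04), under 2-fold, with normexp. Myc, a growth regulator measured by 3 called probes, rose by 1.65 (SE 0.23, adjusted p = 2.95e-04), and Phlda1 by 1.30 (SE 0.10, adjusted p = 1.33e-05). Etv5, closely related to Etv4, fell by 1.77 (SE 0.38, adjusted p = 0.00376), from 8.41 to 8.75 on the WT arrays to 5.29 to 7.76 on the SCC arrays. The Etv5 difference was -1.38 (adjusted p = 1.87e-04) without SCC replicate 5, its lowest array, and -1.02 (adjusted p = 5.3e-04) with normexp. Egr1, an immediate early transcription factor, missed 2-fold at 0.98 (adjusted p = 0.00137) and was called at 1.14 (adjusted p = 1.68e-05) without SCC replicate 2 and at 1.03 (adjusted p = 0.00312) without WT replicate 5. Dusp4, a MAP kinase phosphatase, was at 0.80 (adjusted p = 0.00875) and was called at 1.12 (adjusted p = 1.71e-05) without SCC replicates 2 and 5 together. Of the 9 genes, Fosl1 included, 6 lay wholly higher and 2 wholly lower in SCC, beside 18.8% and 22.3% of all tested genes. At the adjusted p alone, 6 were higher and 3 lower, beside 25.5% and 28.4%. The lower ones were Etv5, Ier3 at -0.69 (adjusted p = 8.88e-04, limma) and Dusp6 at -0.45 (adjusted p = 0.039, limma). Etv4 and Etv5 moved in opposite directions on the same arrays.

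**Figure D4:**
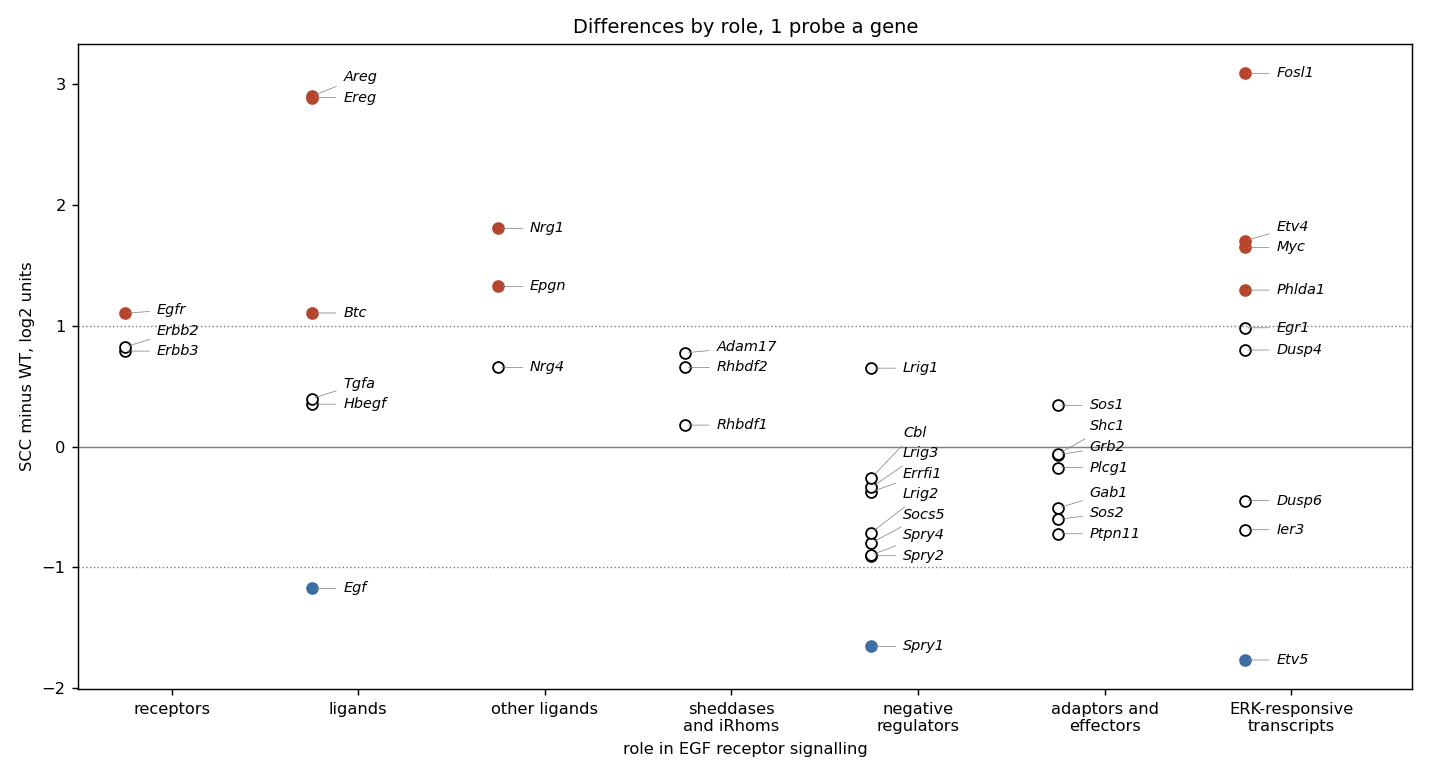
Difference between SCC and WT (vertical axis, log2 units) of the 9 tested members and the 31 tested pathway genes by role, 1 probe a gene; filled symbols were called, red higher and blue lower, and dotted lines mark 2-fold. Receptors and ligands other than Egf lie above 0, and among the negative regulators only Lrig1 does.

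Genes with the most similar profiles were searched among 14108 genes above background on all 10 arrays, by the root mean square distance between profiles centred on their own mean. For Areg these were Steap1, a membrane protein, at 0.28 log2 units, Tmc8, another membrane protein, at 0.40 and Stc2, which encodes the secreted stanniocalcin 2, at 0.40. Steap1 and Stc2 shared with Areg the highest value on SCC replicate 2 (9.23 and 12.26) and Tmc8 did not. For Egf they were 1810014B01Rik at 0.28, Art5, an ADP-ribosyltransferase expressed in muscle, at 0.32, and Ppara, a regulator of fatty acid oxidation, at 0.32. These likenesses follow from 10 arrays in 2 groups and are a description.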

How the data were processed

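Whole lungs of 5 WT mice and 5 SCC tumors were hybridised to Agilent single-colour mouse arrays, and the titles gave each array its group and number. The study's methods state that sample sizes are biological replicates. The authors extracted the scans with Agilent Feature Extraction 12, per the labels, and the deposited scanner files give for each spot a background-subtracted processed intensity on a linear scale with flags. A deposited matrix of log2 values matched the quantile-normalized values at r of at least 0.9999 on each array and was used to choose probes and as an alternative.

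Control and outlier spots were left out, repeated spots were averaged on the log2 scale, and the 41174 probes were then quantile-normalized. No probe was saturated. The 30374 probes well above background (by at least 0.5 of their spots) on at least 4 of 5 arrays of a group were tested two-sided with lmFit and eBayes of limma 3.58.1 (R 4.3.3), group being the only term. Benjamini-Hochberg adjustment ran over these probes, of which 6954 (22.9%) were called. For single values an exact two-sided permutation test over 252 splits was added. Symbols came from RefSeq accessions (GRCm38.p6; 28223 probes). The methods' one-way analysis of variance was run as an alternative, as a t-test at an unadjusted p below 0.05, the general threshold the methods state, and at a stricter 0.01. Lkb1 (Stk11) itself is not analysed here. The fit was tested on simulated data.

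The members, gene lists and tests were chosen with earlier results of these data known. Genes named are all members, every pathway gene that was called or whose role held fewer than 6 genes, and the 3 nearest profiles of the most raised and most lowered called member. Lrig1, Lrig2, Cbl, Spry2, Spry4, Sos1, Ptpn11, Egr1, Dusp4, Dusp6, Ier3, Grb2, Shc1 and Plcg1 lie outside this rule and were named after their values were seen. The reasons were probes that disagreed or a call or sign that changed. Lrig1 was named as the exception in a plot, and Dusp6 and Ier3 as genes lower at the adjusted p alone. Motif searches beyond TGANTCA and the neighbours on chromosome 5 were added after the values were seen. Besides the squamous, general epithelial, neutrophil and cardiac marker lists, those of other lung cells were followed. Called lower in SCC were 5 of 5 endothelial, 3 of 4 alveolar type 1, 3 of 5 T cell, 2 of 5 club cell, 2 of 5 fibroblast, 1 of 5 ciliated cell, 0 of 5 alveolar type 2 and 0 of 5 macrophage markers, and 1 macrophage marker was called higher.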

Additional observations from a re-analysis of the deposited data

Results flagged for a closer look

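In 34 sets of 5 arrays (17 genes in each group), the gap of an array to its nearest neighbour was set against the range of the group. Its share passed the limit of 0.71 (Dixon's test) in 7 sets. For a single set chance gives this about 1 time in 20. The genes, the tested members and the called pathway genes, were read on the same 10 arrays. The sets are therefore not independent, and their count is a description that cannot be compared with that rate. Of these 7, 5 were SCC replicate 2. It was low for Egfr (share 0.923), Hbegf (0.794), Etv4 (0.819) and Myc (0.812) and high for Spry1 (0.866). The cause was not tested. In the WT group, replicate 4 was high for Ereg (0.95), where it was the array above background, and replicate 3 was high for Egfr (0.719), at 11.14 against 10.78 to 10.88 on the others.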

How the results depend on the processing

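Areg and Egfr were called under every alternative tried except that Egfr did not pass with slide as a fixed block. Of 5 members called, 2 were called with normexp background correction (Egfr and Areg), 1 with slide as a fixed block (Areg), and all 5 with the methods' t-test at an unadjusted p below 0.05, the threshold the methods state, which was added after seeing the data. That test called 3 (Egfr, Areg and Ereg) at a stricter unadjusted p below 0.01 and after Benjamini-Hochberg. Ereg passed the brightness filter through the SCC group alone, so wherever these counts include it, its call is a description. They include it in all 10 fits that left out 1 array. With only the probes above background on all arrays, 4 members were called (Egfr, Areg, Btc and Egf). Leaving out 1 array gave 3 to 4 members, 8 to 10 genes of the pathway list (8 in the full fit) and 6385 to 8135 probes, the last without SCC replicate 2, where the 2 pathway genes newly called were Egr1 and Spry4. The pathway list gave 3 called genes with slide as a fixed block and 23 at the adjusted p alone. All tested probes gave 3969 calls with normexp, 2989 with slide as a fixed block and 14878 at the adjusted p alone. Some pathway genes that did not pass changed sign, namely Plcg1 (0.012 with scaling to the 75th percentile and 0.013 with slide as a fixed block), Cbl (0.14) and Shc1 (0.0029) with slide as a fixed block, and Grb2 (0.013) with array weights. Over the alternatives other than leaving out 1 array, the members gave 116 values, of which 14 no longer passed, 5 newly passed and 0 changed sign. Scaling to the 75th percentile moved the median difference of all tested probes from -0.09 to 0.032 and the share of calls that were higher from 43.3% to 53.2%, and all tested members kept their sign. Arrays with the same replicate number did not deviate together (r from -0.103 to 0.00867). With the replicate block 5 members and 8 pathway genes were called, with 6571 probes in all, and Erbb3 no longer passed (adjusted p = 0.0519, limma). Dim probes limit Ereg, above background on 1 WT array, and Erbb4, above background on none. The small number of arrays limits the precision.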
